A study of Mus musculus with 4 samples.

Results

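The 32 genes described here encode components of basement membranes, the thin sheets of extracellular matrix that underlie endothelium and wrap mural cells. They were chosen by symbol, 32 of the 53703 features counted, and make up the collagen IV chains, the laminin chains, nidogens, perlecan and agrin, the multiplexins, the fibulins with their relatives, and the adaptors *Tinagl1*, *Npnt*, *Frem1*, *Frem2* and *Fras1*. In a basement membrane, a laminin polymer (each trimer holds an α, a β and a γ chain) binds to receptors on the cell, a crosslinked collagen IV network lies over it, and nidogens and perlecan link the 2 layers. In bone, this matrix surrounds sinusoids, metaphyseal capillaries and arteries, and collagen XV and collagen XVIII sit in vascular basement membranes as proteoglycans.

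The mutant group, Lats2iECKO, carried loxP-flanked *Lats2* and the *Cdh5(PAC)-CreERT2* transgene, which deletes in endothelial cells (ECs) after tamoxifen. The controls were Cre-negative littermates given the same tamoxifen. The mice were on a C57/BL6 background with an endothelial mT/nG reporter, of both sexes, and were taken at 12 weeks of age. Cells of the metaphysis of femur and tibia were depleted of lineage-positive, CD45-positive and CD117-positive cells and profiled with 10x Chromium V3, a droplet method that counts the 3′ ends of transcripts, in 2 libraries of each group. LATS2 is a kinase that restrains YAP1 and TAZ, which act on DNA with TEAD factors.

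The libraries hold between 69636600 and 85899079 UMIs (transcript counts), and 5119 to 6813 barcodes of each passed the filters, with medians of 7574 to 8181 UMIs. Of 24599 barcodes, 20705 were given a cell type from marker genes, none of which is a member of the set. Counts were summed per library and cell class and are given as CPM (counts scaled to a total of 1e+06) of that sum, so a library, not a cell, is the replicate, and p-values measure the spread between libraries only. A gene was tested where its mean count over the 4 libraries was at least 10, and it was called higher or lower at an adjusted p of at most 0.05 in edgeR's quasi-likelihood test (Benjamini-Hochberg over all genes tested in the class). An exact permutation test of 2 libraries against 2 cannot give a p under 0.333. *Lats2* stood at 91.8 and 98.1 CPM in mutant ECs and at 133 and 124 CPM in control ECs (log2 fold change −0.36, edgeR adjusted p = 0.00528), and the transgene *Cre-ERT2* at 55.1 and 48.9 against 0.669 and 0.869 CPM. Counts over the whole gene do not show whether its loxP-flanked part was removed, so the transgene is the check of the labels. Any 2 libraries share 6 to 16 of their filtered barcodes.

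*Col4a1* and *Col4a2*, the collagen IV chains of the vessel wall, lie head to head: *Col4a1* (ENSMUSG00000031502) runs from 11248423 to 11362826 on the minus strand of chromosome 8 in GRCm39, and *Col4a2* (ENSMUSG00000031503) from 11362471 to 11499287 on the plus strand. The gene bodies overlap at their starts, away from the 3′ ends that were read. In the RefSeq promoter windows of GRCm38.p6, from 250 bases before to 50 after a gene's start, their starts are 21 bases apart and their windows share 78 bases (chr8:11312777-11312854). Both windows are shown 5′ to 3′ on the strand of each gene, with the shared bases in capitals, because the levels of both genes are compared throughout.
Col4a1: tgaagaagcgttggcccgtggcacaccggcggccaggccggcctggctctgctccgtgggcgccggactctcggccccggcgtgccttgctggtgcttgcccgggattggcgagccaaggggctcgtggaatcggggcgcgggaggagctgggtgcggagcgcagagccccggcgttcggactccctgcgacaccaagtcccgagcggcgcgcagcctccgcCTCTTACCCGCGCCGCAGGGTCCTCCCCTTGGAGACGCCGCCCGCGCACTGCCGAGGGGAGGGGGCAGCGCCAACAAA
Col4a2: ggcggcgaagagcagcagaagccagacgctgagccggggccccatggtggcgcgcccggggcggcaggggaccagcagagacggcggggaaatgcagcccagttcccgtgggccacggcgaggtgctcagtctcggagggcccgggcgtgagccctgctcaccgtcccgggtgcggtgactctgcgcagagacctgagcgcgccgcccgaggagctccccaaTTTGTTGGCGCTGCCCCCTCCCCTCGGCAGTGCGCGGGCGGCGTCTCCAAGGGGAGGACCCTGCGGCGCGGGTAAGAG

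Windows were found for 24 of the 32 genes, 34 windows in all, among 32851 windows of the genome. The core bound by TEAD factors, GGAATG on either strand, was in 4817 windows of the genome (14.7%) and in 6 member windows (17.6%), those of *Col18a1*, *Tinagl1*, *Nid1*, *Col4a6*, *Lamb3* and *Frem2*. The CArG box, to which SRF binds, was in 535 windows (1.63%) and in 1 member window, that of *Lama2*. Among members with a TEAD core in a window, *Col18a1* and *Tinagl1* were called higher in mutant ECs. Each has another window (chr10:77166481-77166780 and chr4:130174753-130175052) that holds no core. *Lama4*, *Lamc1* and *Nid2*, also called higher there, had no window. The windows with a core, *Col18a1* (chr10:77113656-77113955) and *Tinagl1* (chr4:130175073-130175372), both on the minus strand, are shown with the core in capitals.
Col18a1: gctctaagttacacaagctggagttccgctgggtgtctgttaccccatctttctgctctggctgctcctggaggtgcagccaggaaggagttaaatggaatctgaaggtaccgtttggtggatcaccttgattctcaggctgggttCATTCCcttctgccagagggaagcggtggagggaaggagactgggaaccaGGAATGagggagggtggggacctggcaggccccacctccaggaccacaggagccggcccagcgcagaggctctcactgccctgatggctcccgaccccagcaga
Tinagl1: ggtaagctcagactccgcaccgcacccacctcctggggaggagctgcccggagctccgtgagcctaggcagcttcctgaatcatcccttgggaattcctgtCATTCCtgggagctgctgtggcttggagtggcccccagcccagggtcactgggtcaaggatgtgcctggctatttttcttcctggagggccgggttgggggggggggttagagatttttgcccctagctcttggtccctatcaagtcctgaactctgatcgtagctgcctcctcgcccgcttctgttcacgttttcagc
The *Nid1* window holds a core too, and *Nid1* was lower in all mutant ECs summed, though it was called in no EC subtype. A match of letters is a description of the window and not a site of binding.

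In the control libraries, which carry no Cre, most members were called higher in more than 1 cell type. ECs were called higher than the mean of the other types for 17 of the 30 members tested (32.9% of all genes were), mural cells for 16 (19.4%), bone marrow stromal cells (BMSCs) for 17 (30.9%), fibroblasts for 17 (12.4%), chondrocytes (CHOs) for 12 (36.9%) and osteoblasts (OBs) for 5 (31.7%), all in edgeR with the library as a block. *Col4a1*, a chain of the ubiquitous α1α1α2 collagen IV network, stood at 1253 ± 26.7 CPM in ECs and 1036 ± 9.49 CPM in mural cells (SD, n = 2), and at 405 ± 5.43 CPM in BMSCs and 9.79 ± 3.98 CPM in OBs. ECs and mural cells were both far above the other types for this gene. *Lama3*, the laminin α3 chain, was an EC gene at 109 ± 17.1 CPM, with a log2 difference from the other types of 5.0 ± 0.09 (SE). *Fbln2*, a fibulin that bridges matrix proteins, was shared by ECs (349 ± 22.8 CPM) and fibroblasts (309 ± 34.1 CPM) and stood at 0.932 ± 1.32 CPM in mural cells.

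Mural cells carried other chains in the controls. *Col4a5* and *Col4a6*, which form the network typical of smooth muscle, stood at 105 ± 3.09 and 42.1 ± 0.193 CPM in mural cells and below 1 CPM in ECs. *Tinagl1*, a matricellular protein that binds laminin and integrins, was at 740 ± 3.20 CPM in mural cells and 229 ± 5.17 CPM in ECs. *Lama5* and *Lamc3* were highest in mural cells as well (log2 differences of 4.89 ± 0.15 and 5.53 ± 0.40). *Fbln5*, an elastin-binding fibulin, led in BMSCs at 856 ± 16.0 CPM, *Nid2* was called higher in CHOs (log2 difference 3.36), ECs (1.77) and BMSCs (1.11), and *Hspg2* (perlecan) in ECs (1.44), CHOs (1.18) and fibroblasts (0.37). *Fras1* was called higher in OBs (5.11), CHOs (4.04) and BMSCs (1.93). *Lama1* was at 20.8 ± 1.56 CPM in BMSCs and at most 0.797 CPM in the other types.

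**Figure D1:**
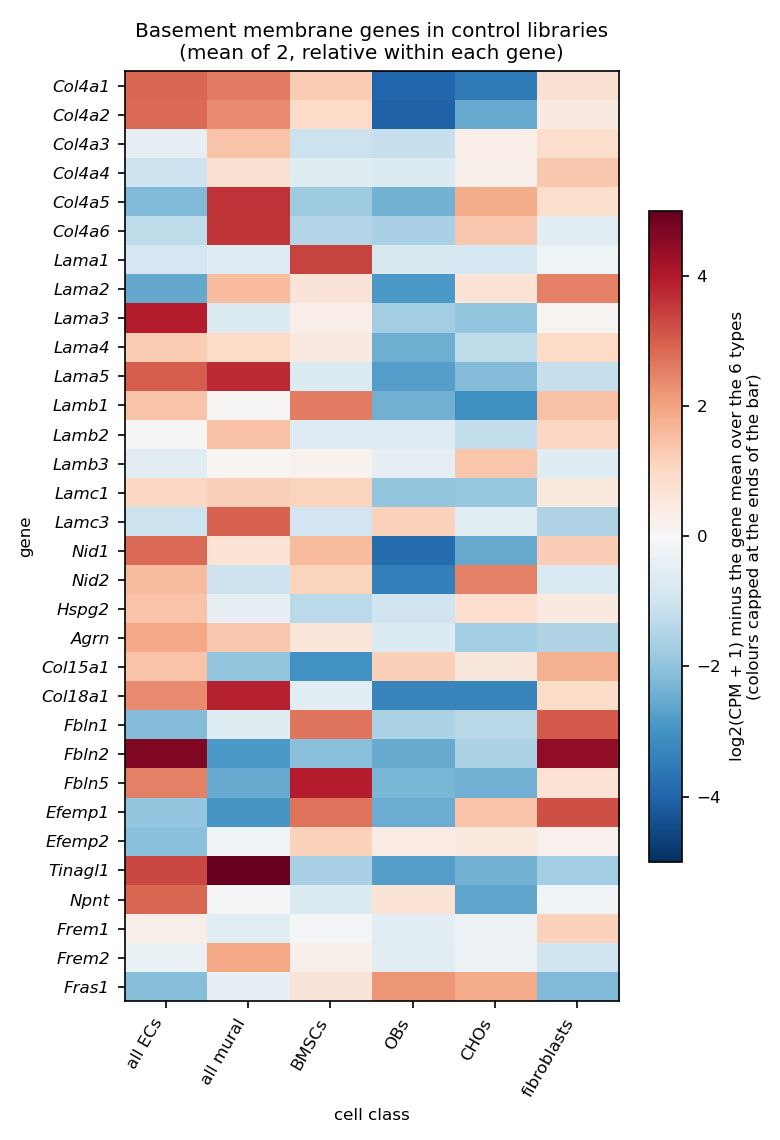
Mean level of each member in 6 cell types of the 2 control libraries, as log2(CPM + 1) minus the mean of that gene over the types; red is above and blue below that mean. *Col4a1*, *Col4a2*, *Nid1* and *Lama3* are red in ECs, *Tinagl1*, *Col4a5* and *Col4a6* in mural cells, *Fbln5* in BMSCs, and OBs are blue for most genes.

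Levels of the members in blood cells of the same libraries were low: no member exceeded 12.3 CPM in erythroid cells or 23.4 CPM in leukocytes. In droplets without a cell, *Col4a1* made up 151 to 371 CPM and *Hspg2* 189 to 227 CPM. Free RNA was estimated at up to 5.5% of the counts of a stromal class, and subtracting it was 1 of the alternatives.

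Across all ECs, 13 of the 22 members tested were higher in mutants and 4 were lower, against 18.1% and 17.4% of the 14165 genes tested (35.6% in either direction). The median log2 fold change was 0.37 over the members and −0.0043 over all genes. Of the 17 calls, 14 remained under each other setting fixed for the analysis. *Col15a1*, the core of the collagen XV proteoglycan, had the largest increase called among members above 100 CPM in controls: it stood at 213 and 215 CPM in mutants and 116 and 118 CPM in controls (log2 fold change 0.95 ± 0.07 SE, edgeR adjusted p = 4.99e-06). *Col15a1* is among the members named because their groups did not overlap, so that lack of overlap is no further support.

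The laminin chains of ECs moved unequally. *Lama4*, the α4 chain made by all endothelium, stood at 323 and 345 CPM in mutants and 228 and 208 CPM in controls (0.69 ± 0.07, adjusted p = 5.55e-05). *Lamb1* (107 and 121 against 70.2 and 72.6 CPM) and *Lamc1* (204 and 213 against 167 and 169 CPM), the β1 and γ1 chains that pair with α4, were also higher. *Lama3* was lower, at 80.4 and 68.7 against 121 and 96.9 CPM (−0.48 ± 0.11, adjusted p = 0.00741). *Lama5* and *Lamb2* were not called, with log2 fold changes of −0.05 ± 0.08 and 0.06 ± 0.07.

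Collagen IV was modestly higher in all ECs summed, though not in each subtype. *Col4a1* stood at 1459 and 1594 CPM in mutants and 1272 and 1234 CPM in controls (0.36 ± 0.06, edgeR adjusted p = 0.000695), and *Col4a2* at 949 and 1036 against 887 and 859 CPM (0.26 ± 0.06, adjusted p = 0.00612). Without mutant replicate 2, *Col4a2* was not called (0.19, adjusted p = 0.0580). The linkers divided: *Nid2* was higher (115 and 110 against 75.4 and 83.6 CPM) while *Nid1* (257 and 258 against 339 and 349 CPM) and *Agrn* (39.0 and 43.8 against 62.7 and 57.9 CPM) were lower, and *Hspg2* was not called. *Col18a1*, *Fbln2*, *Fbln5* and *Tinagl1* were higher by 0.33 to 0.58 on the log2 scale. *Npnt*, nephronectin, a ligand of integrin α8β1, had the largest decrease, from 163 and 144 CPM in controls to 69.2 and 60.7 CPM in mutants (−1.17 ± 0.09, adjusted p = 8.33e-06). *Col4a5* and *Efemp1* were called higher at low levels, at most 6.16 and 17.5 CPM. *Col4a5* had 5 UMIs in each control library and 31 and 16 in the mutant libraries, through which it reached the count needed for a test. Without mutant replicate 1, *Col4a5* was not called (1.62, adjusted p = 0.0533), and in DESeq2 *Efemp1* was not (2.38, adjusted p = 0.0600).

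The mix of EC subtypes differed between the groups. Sinusoidal cells of the marrow (bmEC-like) numbered 59 and 57 in mutants and 209 and 213 in controls, arteriole-like cells (alEC-like) 138 and 163 against 107 and 94, arterial-like cells (aEC-like) 59 and 72 against 80 and 60, and metaphyseal-like cells (mpEC-like) 45 and 73 against 89 and 69, and 1252 of 2839 ECs met no subtype rule. The summed level of the 5 bmEC markers in all ECs was 1080 and 1003 CPM in mutants and 2556 and 2704 CPM in controls. The mural list summed to 271 and 352 against 535 and 584 CPM in all ECs and the leukocyte list to 47.1 and 52.8 against 144 and 154 CPM. In bmEC-like cells the mural list summed to 1245 and 1330 against 1279 and 1385 CPM, and in the other subtypes to at most 397 CPM. The part of these shifts in the values of all ECs was not tested, and the subtypes were therefore fitted on their own. *Nid1*, lower in all ECs, was highest among control subtypes in bmEC-like cells (563 ± 29.7 CPM) and was called in no subtype.

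The mpEC-like cells were gated with markers of the capillary ECs under the growth plate. In them, 8 of 19 members were higher and 5 lower, against 11.3% and 10.1% of the 8525 genes tested (21.4% in either direction). The median log2 fold change was 0.40 over the members and 0.0008 over all genes. *Col15a1* stood at 463 and 404 CPM in mutants and 154 and 178 CPM in controls (1.47 ± 0.16, edgeR adjusted p = 1.91e-06). *Lama4* stood at 701 and 611 against 356 and 363 CPM (0.95 ± 0.15, adjusted p = 0.000132), and *Col18a1*, which carries endostatin at its end, at 340 and 234 against 117 and 151 CPM (1.17 ± 0.19, adjusted p = 0.000214). *Tinagl1* stood at 221 and 210 against 108 and 64.4 CPM. Lack of overlap between the groups was a condition for naming these 4 genes with values.

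The levels of *Npnt* and *Lama3* went the other way in mpEC-like cells. *Npnt* was at 45.1 and 20 CPM in mutants and 144 and 159 CPM in controls (−2.23 ± 0.27, edgeR adjusted p = 5.90e-06), and *Lama3* at 19.6 and 24.0 against 95.5 and 72.3 CPM (−1.85 ± 0.28, adjusted p = 9.24e-05). These were the largest decreases of the set in ECs. *Lama5* was lower too, at 63.2 and 44.6 against 94.2 and 113 CPM, so that the *Lama4* to *Lama5* ratio reached 11.1 and 13.7 in mutant libraries against 3.78 and 3.21 in control libraries (a ratio of counts, comparable between groups but not a ratio of molecules). *Col4a1* was at 3352 and 3389 against 2369 and 2309 CPM, *Col4a2* at 2114 and 2110 against 1516 and 1540 CPM, and their ratio stayed between 1.499 and 1.606 in the 4 libraries. *Lamb1* and *Lamc1* were called higher, *Agrn* and *Fbln2* lower, and *Nid1*, *Nid2*, *Hspg2*, *Lamb2*, *Fbln5* and *Efemp2* were not called.

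Of these 13 calls, 6 (*Lama3*, *Lama4*, *Col15a1*, *Col18a1*, *Tinagl1* and *Npnt*) remained under each other setting fixed for the analysis. *Col4a1* and *Col4a2* lost their calls without control replicate 1 (0.62 and 0.53, adjusted p = 0.117 and 0.151) and without control replicate 2 (0.60 and 0.57, adjusted p = 0.111 and 0.0905). *Lamb1* (0.42), *Lamc1* (0.43) and *Fbln2* (−0.66) lost theirs without control replicate 1, *Agrn* without mutant replicate 2 (−0.83) or control replicate 2 (−0.66), and *Lama5* without mutant replicate 2 (−0.63) or control replicate 2 (−0.75). DESeq2 called 7 members higher and 2 lower in mpEC-like cells, and the calls lost in it were those of *Lamb1* (0.68, adjusted p = 0.0677), *Fbln2* (−1.04, adjusted p = 0.0683), *Lama5* (−0.88, adjusted p = 0.126) and *Agrn* (−0.84, adjusted p = 0.251). *Agrn* was also not called without the filter on low counts (−0.79, adjusted p = 0.0518).

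The mpEC-like cells themselves differed between the groups in their own markers. The gate uses these markers, *Apln* among them, so it selects cells in part by genes that differed between the groups. Of the 6 mpEC markers, 3 were above and 2 below the controls in both mutant libraries: *Apln*, a marker of sprouting ECs, was at 966 and 935 against 76.1 and 59.7 CPM, *Ramp3* at 155 and 99.3 against 370 and 289 CPM, and *Aplnr* at 269 and 353 against 759 and 632 CPM. The summed level of the list was 3328 and 3734 CPM in mutants and 2949 and 2626 CPM in controls. The markers of the other EC subtypes also summed to lower levels, those of alEC at 770 and 817 against 1251 and 1033 CPM, of bmEC at 576 and 628 against 947 and 736 CPM and of aEC at 30.1 and 35.5 against 61.9 and 97.4 CPM. The EC list summed to 6105 and 6446 against 6835 and 6748 CPM, and the leukocyte list to 144 and 116 against 270 and 289 CPM. The part of these shifts in the mpEC-like result was not tested. Median UMIs per cell were 8941 and 11494 against 6693 and 5955. An alternative chosen after seeing these values kept only mpEC-like cells without an *Apln* UMI, leaving 11 and 13 mutant cells and 62 and 48 control cells in the libraries. In these cells no member was called in edgeR among 18 tested (8 of 4781 genes were called and 391 had an unadjusted p under 0.05, and DESeq2 was not run on them). The log2 fold changes were −1.38 ± 0.47 for *Npnt*, −1.14 ± 0.48 for *Lama3*, 0.84 ± 0.34 for *Col15a1*, 0.82 ± 0.35 for *Tinagl1*, 0.62 ± 0.19 for *Col4a2* and 0.49 ± 0.18 for *Col4a1*. They were 0.22 ± 0.27 for *Lama4*, 0.28 ± 0.36 for *Col18a1* and −0.003 ± 0.37 for *Lama5*, and *Agrn* changed sign (0.24 ± 0.43). With so few mutant cells these values have wide errors.

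In alEC-like cells, 1 of 18 members was higher and 5 were lower, where 7.17% of the 9040 genes tested were called in either direction, and the medians were −0.31 over the members and −0.0045 over all genes. *Lama4* was at 151 and 154 CPM in mutants and 293 and 225 CPM in controls (−0.73 ± 0.15, edgeR adjusted p = 0.00726). *Lama3* stood at 40.7 and 27.0 against 97.0 and 58.4 CPM, *Lamb1* at 28.6 and 28.9 against 52.4 and 56.6 CPM, *Col15a1* at 232 and 227 against 318 and 376 CPM, and *Col4a1* at 617 and 568 against 880 and 732 CPM. *Fbln2* was higher, at 700 and 653 against 507 and 455 CPM (0.54 ± 0.11, adjusted p = 0.00635). The *Lama4* to *Lama5* ratio, 1.85 and 2.19 against 3.34 and 3.07, moved opposite to that of mpEC-like cells. None of the 6 calls remained under each other setting fixed for the analysis, and 1 member was called without mutant replicate 1 and 2 without mutant replicate 2, beside 315 and 331 genes (648 with all libraries). *Lama4* (−0.71, adjusted p = 0.0631) and *Fbln2* (0.49, adjusted p = 0.131) lost their calls in 1 setting each, without mutant replicate 1. Of the 5 alEC markers, *Cd300lg*, *Ltbp4* and *Ly6c1* were below the controls (*Ly6c1* 488 and 544 against 1229 and 1207 CPM) and *Vwf* was above. The list summed to 2877 and 2860 against 3518 and 3706 CPM, the BMSC list to 1289 and 1418 against 2205 and 1969 CPM and the mpEC list to 408 and 486 against 735 and 718 CPM, and their part in the result was not tested.

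In aEC-like cells, 2 of 16 members were lower and none higher (5.47% of 7089 genes were called in either direction). At an unadjusted p under 0.05, 6 members and 1309 genes passed, and DESeq2 called 1 member and 128 genes. *Col18a1* was at 224 and 282 CPM in mutants and 486 and 561 CPM in controls (−0.97 ± 0.16, edgeR adjusted p = 0.00156), and *Lama3* at 209 and 183 against 349 and 311 CPM (−0.68 ± 0.16, adjusted p = 0.0245). Without mutant replicate 1, neither was called (*Col18a1* −0.82, adjusted p = 0.0527; *Lama3* −0.78, adjusted p = 0.103), and *Lama3* was not called without any other library either. The aEC list summed to 2594 and 2616 against 3018 and 2859 CPM in these cells, the leukocyte list to 7.23 and 18.8 against 35.8 and 65.8 CPM, and the OB list to 38.6 and 48.4 against 40.8 and 1347 CPM, so that control replicate 2 stood apart. Their part in the result was not tested. Without control replicate 2, *Col18a1* was called. *Fbln5* and *Fbln2*, the fibulins for which aEC-like cells stood highest among control EC subtypes (1502 ± 0.0558 and 1249.5 ± 24.3 CPM), were not called. *Col4a1* and *Col4a2* (log2 fold changes of −0.61 each) were not called in aEC-like cells either. In bmEC-like cells, 2 of 20 members were higher and 1 lower (6.61% of 9706 genes in either direction, medians 0.05 over the members and −0.0011 over all genes): *Fbln5* at 93.5 and 137 against 40.8 and 58.2 CPM, *Tinagl1* at 227 and 246 against 139 and 159 CPM, and *Npnt* at 119 and 105 against 194 and 185 CPM. Without control replicate 1 or without control replicate 2 no gene was called in bmEC-like cells (810 and 1030 genes had an unadjusted p under 0.05), and without mutant replicate 2 only *Tinagl1* was among the members. The list of BMSC markers, BMSCs being the cell type with the highest *Fbln5* level in controls, summed to 866 and 1379 CPM in mutant bmEC-like cells and 294 and 468 CPM in control ones, and its part in the *Fbln5* value was not tested. The bmEC list itself summed to 6212 and 6253 against 7540 and 7431 CPM and the EC list to 5497 and 5102 against 6091 and 6108 CPM. The mpEC list summed to 1219 and 1079 against 966 and 960 CPM and the leukocyte list to 86.6 and 108 against 169 and 175 CPM. Their part in the bmEC-like result was not tested.

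Whether a subtype differed from the mean of the other 3 was tested in 1 fit of all 4 subtypes, with 19 members among 8991 genes. In mpEC-like cells 8 members differed (6.26% of genes did), in aEC-like cells 2 (0.856%), in alEC-like cells 1 (1.36%) and in bmEC-like cells none (0.289%). For bmEC-like cells, 5 members and 857 genes had an unadjusted p under 0.05. The difference was 2.44 ± 0.34 on the log2 scale for *Col15a1* (edgeR adjusted p = 0.000133), 1.47 ± 0.23 for *Lama4*, 1.41 ± 0.24 for *Col18a1*, 1.03 ± 0.22 for *Tinagl1*, 0.93 ± 0.22 for *Lamc1*, 0.84 ± 0.21 for *Col4a1*, −0.90 ± 0.22 for *Lama5* and −1.67 ± 0.33 for *Npnt*. Without control replicate 1, and likewise without control replicate 2, 5 members differed, beside 198 of 8889 and 325 of 8986 genes (563 with all libraries). *Col4a1* was not called without control replicate 1 (0.86, adjusted p = 0.138) or control replicate 2 (0.79, adjusted p = 0.131), and *Lamc1* not without mutant replicate 1 (0.61, adjusted p = 0.147) or control replicate 1 (0.67, adjusted p = 0.265). *Tinagl1* was not called without mutant replicate 2 (1.01, adjusted p = 0.0528) or control replicate 2 (0.61, adjusted p = 0.191), and *Npnt* not without mutant replicate 2 (−1.16, adjusted p = 0.109). *Lama5* was called in none of the fits without mutant replicate 2 (−0.80), control replicate 1 (−1.10) or control replicate 2 (−0.73) or without the filter on low counts (−0.87), with adjusted p from 0.0509 to 0.191. *Col15a1*, *Lama4* and *Col18a1* kept the call under each setting fixed for the analysis. With mpEC-like cells that lack an *Apln* UMI, none did in mpEC-like cells. There 0 of 8413 genes were called (725 had an unadjusted p under 0.05), so that loss is not particular to the members. The differences were 1.76 ± 0.44 for *Col15a1*, 0.66 ± 0.31 for *Lama4*, 0.65 ± 0.23 for *Col4a1*, 0.49 ± 0.31 for *Lamc1*, 0.46 ± 0.36 for *Col18a1*, 0.40 ± 0.30 for *Tinagl1*, −0.08 ± 0.33 for *Lama5* and −0.88 ± 0.54 for *Npnt*. In aEC-like cells the differences were those of *Col18a1* (−1.42) and *Npnt* (1.30). *Col18a1* was not called without mutant replicate 1 (−1.12, adjusted p = 0.0790), and *Npnt* not without mutant replicate 2 (0.84, adjusted p = 0.357) or control replicate 1 (0.92, adjusted p = 0.539). Neither was called with the mpEC-like cells that lack an *Apln* UMI (−1.13 and 1.02, adjusted p = 0.0840 and 0.313).

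**Figure D2:**
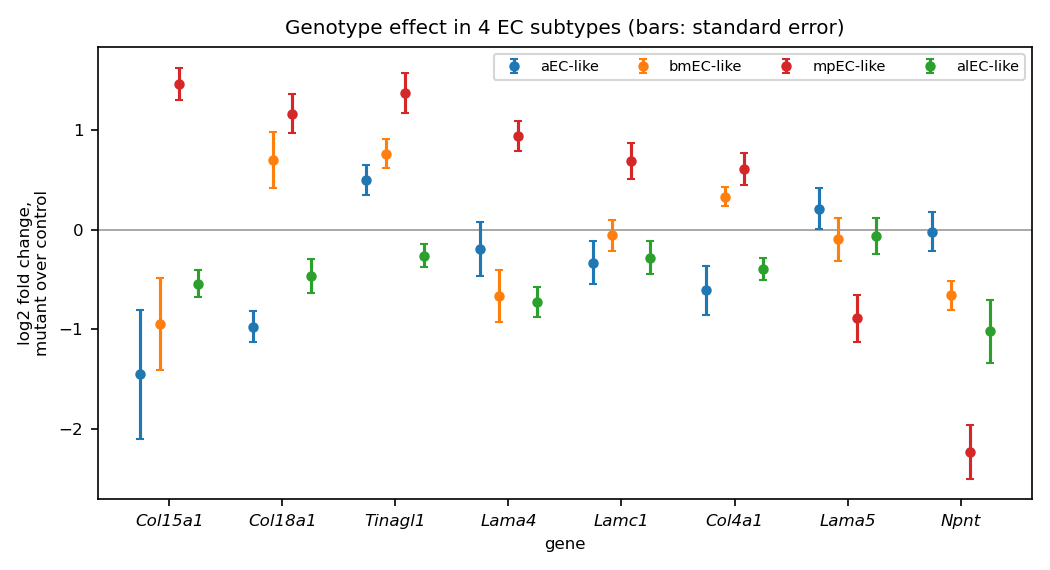
Log2 fold change of mutant over control (points) with its standard error (bars) for 8 members in 4 EC subtypes. The mpEC-like points lie highest for *Col15a1* (1.47) to *Col4a1* (0.61) and lowest for *Lama5* (−0.89) and *Npnt* (−2.23), while the alEC-like points lie below 0.

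Mural cells showed larger differences than ECs for several members. The group holds smooth muscle-like cells (SMC-like) and pericyte-like cells, whose mix also differed: 106 and 119 SMC-like cells in mutants and 166 and 168 in controls, and 200 and 212 pericyte-like cells against 62 and 68. Over all mural cells, 14 of 25 members were higher and 8 lower (15.1% and 13.1% of 11512 genes, 28.2% in either direction), with medians of 0.64 over the members and −0.0068 over all genes. The higher members include *Col4a3*, *Col4a4* and *Fbln2*, whose control mean counts were under 10, so they were tested through the mutant libraries. The mural list summed to 7558 and 8074 against 12998 and 12632 CPM in these cells, the SMC list to 2267 and 2249 against 5092 and 5263 CPM, the leukocyte list to 142 and 140 against 12.3 and 21.7 CPM and the bmEC list to 288 and 358 against 117 and 86.3 CPM. The part of the mix and of these shifts was not tested in that fit. In pericyte-like cells alone, 10 of 20 members were higher and 3 lower (10.5% and 10.0% of 9237 genes, 20.5% in either direction), with medians of 0.56 over the members and −0.011 over all genes. Among the higher members, *Col15a1* and *Fbln5* likewise had control mean counts under 10. In SMC-like cells only *Lama4* was called of 17 members (6.64% of 8385 genes in either direction), lower at 91.0 and 92.6 against 138 and 148 CPM (−0.59 ± 0.15, edgeR adjusted p = 0.0145). It was not called without mutant replicate 1 (−0.58, adjusted p = 0.109) or control replicate 2 (−0.54, adjusted p = 0.0703), nor in DESeq2. At an unadjusted p under 0.05, 6 members and 1614 genes of SMC-like cells passed. In these cells the mural list summed to 6770 and 7072 against 8790 and 8576 CPM and the SMC list to 6148 and 6298 against 6794 and 7130 CPM. The BMSC list summed to 508 and 531 against 599 and 611 CPM, and the part of these shifts in the SMC-like result was not tested.

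Laminin chains differed in opposite directions between the pericyte-like sums of the 2 groups, which also differed in cell numbers and markers. *Lama2*, the α2 chain of the laminin of muscle and pericytes, stood at 640 and 729 CPM in mutants and 309 and 406 CPM in controls (1.05 ± 0.14, edgeR adjusted p = 6.51e-07). *Lama4* stood at 138 and 113 against 275 and 307 CPM (−1.10 ± 0.16, adjusted p = 4.16e-06). Among the β chains, *Lamb1* stood at 233 and 237 against 96.0 and 91.2 CPM (1.44 ± 0.18, adjusted p = 3.48e-07) and *Lamb2* at 146 and 112 against 306 and 324 CPM (−1.18 ± 0.16, adjusted p = 1.58e-06). Per library, the ratio of *Lama2* to *Lama4* counts reached 4.65 and 6.43 in mutants against 1.12 and 1.32 in controls, and that of *Lamb1* to *Lamb2* 1.59 and 2.11 against 0.314 and 0.281. *Lamc3*, the γ3 chain, was higher at 93.4 and 99.1 against 25.9 and 39.3 CPM, and *Lamc1* was not called (−0.39 ± 0.16, adjusted p = 0.0827). For the chains called, lack of overlap between the groups was a condition for naming them with values.

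Of the network and linker genes of pericyte-like cells, *Col4a1*, *Col4a2*, *Nid1* and *Hspg2* were called higher, and *Col4a3* (0.06 ± 0.47), *Col4a4* (0.58 ± 0.50), *Nid2* (0.53 ± 0.32) and *Agrn* (−0.59 ± 0.28) were not called. *Col4a1* stood at 3465 and 3975 CPM in mutants and 2239 and 2058 CPM in controls (0.91 ± 0.10, edgeR adjusted p = 5.87e-08), and *Col4a2* at 2015 and 2349 against 1276 and 1092 CPM, with a ratio of 1.69 to 1.72 in mutants and 1.75 to 1.88 in controls. *Nid1* stood at 281 and 328 against 184 and 190 CPM and *Hspg2* at 128 and 117 against 54.5 and 65.9 CPM. *Col15a1*, low in control pericyte-like cells at 23.3 and 7.603 CPM, was at 103 and 109 CPM in mutants (2.88 ± 0.32, adjusted p = 6.30e-08), and *Fbln5* at 54.2 and 46.6 against 15.6 and 5.07 CPM. The control values rest on 9 and 3 UMIs of *Col15a1* and on 6 and 2 UMIs of *Fbln5*, so both genes reached the count needed for a test through the mutant libraries, and the size of their folds is uncertain. *Tinagl1* was lower, at 327 and 292 against 495 and 563 CPM (−0.66 ± 0.13, adjusted p = 0.00028). *Col18a1* was called higher (0.48 ± 0.12), but not without mutant replicate 2 (0.33, adjusted p = 0.203) or control replicate 1 (0.47, adjusted p = 0.0580). The other 12 calls remained under each other setting fixed for the analysis, those of *Col15a1* and *Fbln5* on the few control UMIs given above.

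The pericyte-like cells differed in their own markers as well. Of the 6 pericyte markers, 4 were below the controls and 1 above, and the list summed to 7739 and 8911 CPM in mutants and 20238 and 20060 CPM in controls; *Rgs5*, the defining marker, was at 5992 and 7179 against 18030 and 17660 CPM. The SMC list summed to 528 and 470 against 1318 and 1602 CPM, the BMSC list to 592 and 626 against 1440 and 1179 CPM, and the EC list to 174 and 162 against 298 and 229 CPM. Of the 9 EC markers, *Tie1* and *Esam* were below the controls, 5 were above and 2 overlapped, and of the 7 BMSC markers 4 were below, 1 was above and 2 overlapped. The 5 bmEC markers summed to 419 and 535 against 176 and 114 CPM. The leukocyte list summed to 235 and 227 against 38.9 and 71.0 CPM, nearly all of it *Fcer1g*, with *Ptprc* and *Cd79a* at 0. The part of these shifts in the pericyte-like result was not tested. The paper reports many more *Myh11*-negative cells in its mutant SMC cluster and regards them as likely myofibroblasts, cells of fibrosis. How many of those the pericyte-like gate holds was not tested. *Lama2* and *Fcer1g* are among the 10 genes that set pericyte-like cells apart from the other mural cells.

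**Figure D3:**
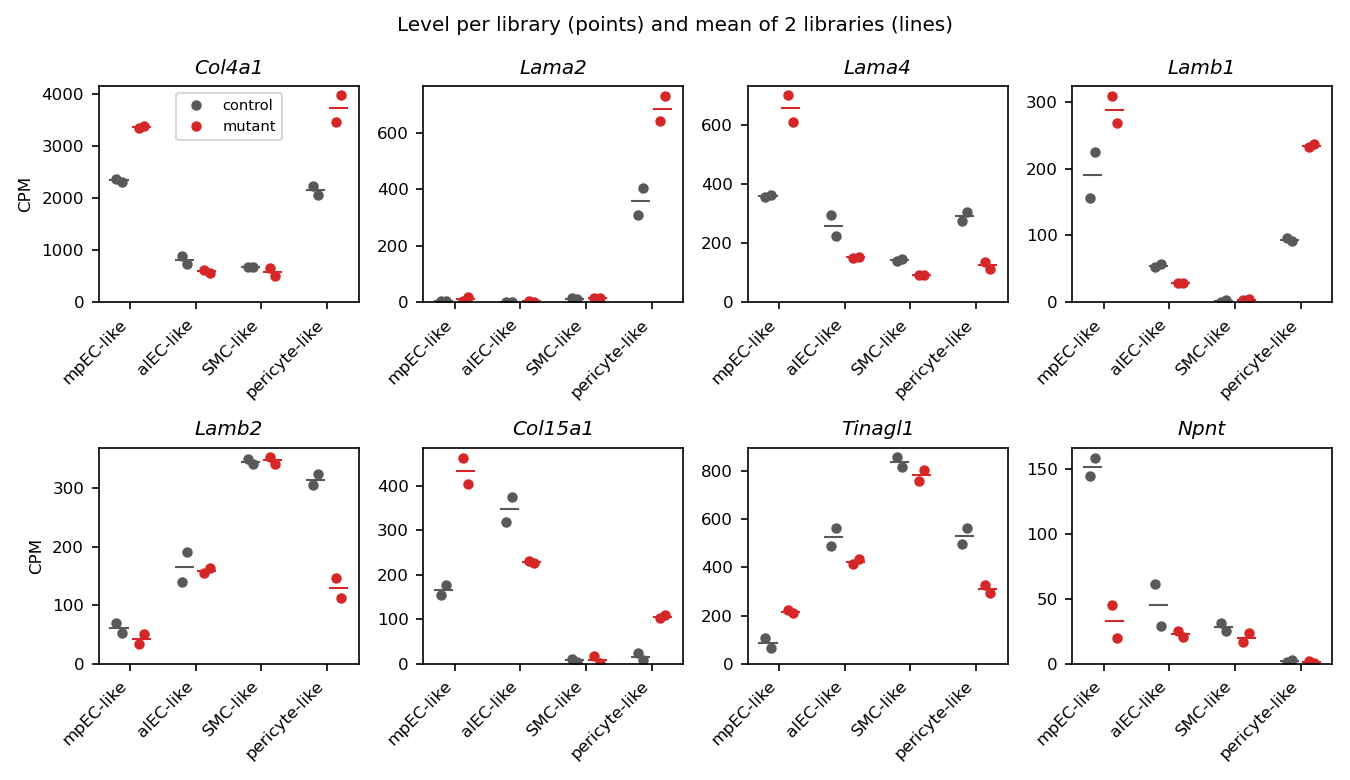
Level in CPM of 8 members in each library (points) and the mean of the 2 libraries of a group (lines), in 4 vessel classes; grey is control, red mutant, and each axis starts at 0. *Lama4* is higher in mutant mpEC-like cells (701 and 611 against 356 and 363 CPM) and lower in the other 3 classes, and *Lamb1* and *Lamb2* separate in opposite directions in pericyte-like cells.

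Over all mural cells, *Lamb1* (2.45), *Col15a1* (2.82), *Fbln5* (2.51), *Lama2* (2.00), *Lamc3* (1.69), *Nid1* (1.37), *Col4a1* (1.33) and *Col4a2* (1.29) were higher on the log2 scale. *Col4a6* (−1.48), *Col4a5* (−1.24), *Npnt* (−1.34), *Lamb2* (−0.72) and *Tinagl1* (−0.67) were lower. *Col4a5* stood at 42.9 and 44.2 CPM in mutants and 107 and 103 CPM in controls over all mural cells, yet at 125 and 129 against 142 and 137 CPM in SMC-like cells, where it was not called (−0.09 ± 0.14) and which in controls carried most of it (140 ± 3.73 CPM, against 10.3 ± 0.168 CPM in pericyte-like cells). *Col4a3* (1.19) lost its call without mutant replicate 2 (1.01) or control replicate 2 (0.64), *Fbln2*, with 33 and 6 UMIs in mutants and 0 and 3 in controls, without mutant replicate 1 (0.94) or control replicate 1 (1.80), *Lama5* without control replicate 2 (−0.32), and *Lamc1* without mutant replicate 1 (−0.26), mutant replicate 2 (−0.31) or control replicate 2 (−0.26). In DESeq2, *Col4a3* (adjusted p = 0.256), *Fbln2* (adjusted p = 0.470) and *Lamc1* (adjusted p = 0.232) were not called, nor was *Col4a3* at 2000 UMIs (0.97, adjusted p = 0.0850) or *Lamc1* without the filter on low counts (−0.22, adjusted p = 0.155).

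ECs and mural cells were compared in 1 fit of both types, in which the genotype effect differed for 13 of 27 members (15.7% of 13500 genes). The effect was more positive in mural cells for *Fbln5*, *Col15a1*, *Nid1*, *Lamb1*, *Lama2*, *Col4a2*, *Efemp2* and *Col4a1*, with EC minus mural differences from −2.19 ± 0.22 to −0.97 ± 0.07. It was more positive in ECs for *Lamc1*, *Lamb2*, *Lama4*, *Tinagl1* and *Col4a5*, with differences from 0.67 ± 0.11 to 3.55 ± 0.52. *Lama4* and *Tinagl1* were called higher in all ECs and lower in all mural cells, and *Nid1* the reverse, though *Nid1* was called in no EC subtype. The difference of *Lama2* (−1.24 ± 0.31, edgeR adjusted p = 0.0167) was not called without mutant replicate 2 (−1.12, adjusted p = 0.116) or control replicate 2 (−0.55, adjusted p = 0.474), with the double margin of marker scores (−0.68, adjusted p = 0.208) or with free RNA subtracted (−1.16, adjusted p = 0.0706). Both types carry the changes of subtype mix given above.

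In BMSCs, the mesenchymal cells of the marrow, 8 of 28 members were higher and 3 lower (11.0% and 8.85% of 15630 genes, 19.9% in either direction), with medians of −0.04 over the members and −0.0039 over all genes. *Col18a1* was at 40.4 and 34.8 CPM in mutants and 20.6 and 22.1 CPM in controls (0.86 ± 0.11, edgeR adjusted p = 0.000149), and *Col4a1* at 490 and 546 against 409 and 401 CPM (0.40 ± 0.06). *Nid1*, *Lama2*, *Lamb1*, *Hspg2*, *Col4a2* and *Col4a4* were also called higher and *Lama3*, *Npnt* and *Fras1* lower. Without control replicate 1 or control replicate 2, 2 members were called, beside 859 and 1064 genes, and 6 without mutant replicate 2, beside 3018 genes (3109 with all libraries). The BMSC list summed to 23775 and 24517 against 26769 and 26292 CPM in these cells, the OB list to 2203 and 2120 against 2863 and 2797 CPM, the Pericyte list to 214 and 196 against 128 and 144 CPM, the mpEC list to 467 and 415 against 312 and 337 CPM and the SMC list to 23.8 and 28.5 against 42.6 and 57.9 CPM. Their part in the BMSC result was not tested. BMSCs numbered 572 and 708 in mutants and 2035 and 1985 in controls. BMSCs were not gated into subtypes, so the part of their mix was not tested. In OBs only *Fras1*, a link between epithelia and matrix, was called of 21 members (5.71% of 12816 genes in either direction), at 17.6 and 14.8 against 28.0 and 29.2 CPM (−0.87 ± 0.15, adjusted p = 0.00517). It was not called without control replicate 1 or control replicate 2, where no gene was (1058 and 1120 genes had an unadjusted p under 0.05), nor without mutant replicate 2, where the 2 members called were higher. Without mutant replicate 1, the median log2 fold change was −0.23 over the members and −0.012 over all genes. Without mutant replicate 2, the medians were 0.25 and −0.002. DESeq2 called 0 members in OBs (357 genes were called and 1076 had an unadjusted p under 0.05). OBs numbered 145 and 168 in mutants and 696 and 739 in controls. Median UMIs per OB were 10094 and 13084.5 in mutants against 16413 and 17399 in controls. The mpEC list summed to 124 and 135 against 63.2 and 57.9 CPM in OBs, and the part of these shifts was not tested.

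In CHOs, 10 of 30 members were higher and 9 lower (21.7% and 21.6% of 18410 genes, 43.3% in either direction), with medians of 0.12 over the members and −0.0028 over all genes. *Tinagl1* stood at 37.5 and 34.0 CPM in mutants and 3.94 and 2.79 CPM in controls (3.47 ± 0.12, edgeR adjusted p = 3.44e-10), and *Lamb1* at 12.7 and 11.7 against 2.60 and 1.84 CPM (2.52 ± 0.15, adjusted p = 3.87e-08). These are low levels beside those of vessel cells. *Lamb3* (1.38), *Col18a1* (1.28) and *Fbln1* (1.03) were higher, and *Fras1* (−1.21), *Col4a6* (−1.10) and *Col4a5* (−1.02) lower. With genes limited to those seen in 20% of cells, 10 members were tested and 8 of them called, beside 4128 of 6666 genes. The CHO list summed to 21431 and 21166 CPM in mutant CHOs and 25669 and 26112 CPM in control ones, the OB list to 4139 and 4444 against 3410 and 3313 CPM, the Pericyte list to 1096 and 1088 against 401 and 417 CPM, the mpEC list to 708 and 655 against 404 and 419 CPM and the FIB list to 160 and 165 against 94.2 and 113 CPM. Their part in the CHO result was not tested. CHOs numbered 2160 and 2336 in mutants and 1569 and 1635 in controls. They were not gated into subtypes, so the part of their mix was not tested. In fibroblasts no member of 16 was called in edgeR (0.842% of 7597 genes were called in either direction), 7 members and 923 genes had an unadjusted p under 0.05, and DESeq2 called none. There were 59 to 88 fibroblasts a library. Without mutant replicate 1, the median log2 fold change was 0.22 over the members and −0.0022 over all genes (0.22 and 0.0013 with all libraries). *Col4a2* had a log2 fold change of 0.85 ± 0.19 and *Efemp1* of −1.44 ± 0.32 in fibroblasts (both adjusted p = 0.0721).

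**Figure D4:**
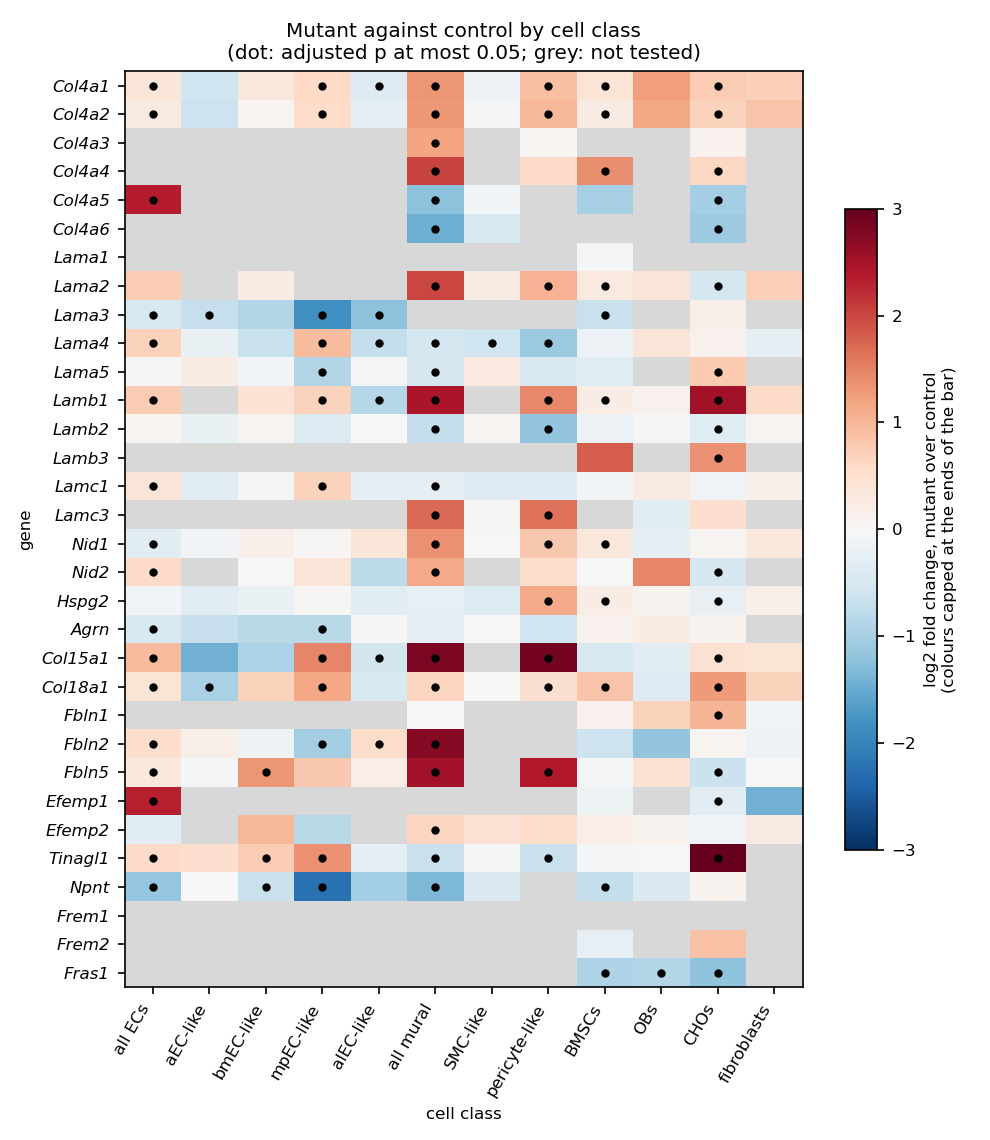
Log2 fold change of mutant over control for the 32 members (rows) in 12 cell classes (columns); red is higher in mutants, blue lower, a dot marks an adjusted p of at most 0.05 and grey marks genes not tested. *Col4a1* and *Col4a2* are red and carry dots in all ECs, mpEC-like, mural, pericyte-like and BMSC classes and CHOs. *Col4a1* also carries a dot in alEC-like cells, where it is blue. SMC-like cells carry 1 dot (*Lama4*) and fibroblasts none.

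Of the 32 members, *Lama1*, *Lamb3*, *Frem1*, *Frem2* and *Fras1* did not reach the count needed for a test in any of the 8 vessel classes, and *Frem1* in none of the 12 classes. *Fbln1* was tested in all mural cells and not called in them (0.00 ± 0.41). The filter uses the mean over the 4 libraries, so a gene high in only 1 group can pass through that group. The control mean count was under 10 for the calls of *Col4a5* in all ECs and *Col4a3*, *Col4a4* and *Fbln2* in all mural cells. The same held for the calls of *Col15a1* and *Fbln5* in pericyte-like cells. In BMSCs, *Col4a4* was called higher in mutants (2.20 against 0.86 CPM) at 8 and 10 counts. There it passed through the controls at 11 and 12 counts, whose sums held more UMIs.

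Genes that receive, assemble or process basement membrane were read from lists of 15 receptors and 19 assembly factors. In all ECs, 6 of 14 receptors tested were higher and 3 lower, and 8 of 19 assembly genes were higher and 3 lower, beside 18.1% and 17.4% of all genes. *Itga2*, the collagen-binding integrin α2, was at 37.8 and 32.8 CPM in mutants and 98.8 and 91.4 CPM in controls (−1.36 ± 0.09, edgeR adjusted p = 2.52e-06). The syndecans *Sdc4* (1.25 ± 0.18) and *Sdc1* (1.10 ± 0.15) and *Bcam*, the receptor of laminin α5 (0.76 ± 0.08), were higher. Among the assembly genes, *Smoc2*, a relative of SPARC (1.68 ± 0.47), *Ntn4*, a netrin that binds laminin (1.41 ± 0.15), and the collagen prolyl hydroxylase *P4ha2* (0.53 ± 0.12) were higher, and the hemicentin gene *Hmcn1* was lower (−0.79 ± 0.07).

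In all mural cells, 3 of 13 receptors were higher and 7 lower, and 10 of 17 assembly genes were higher and 1 lower, beside 15.1% and 13.1% of all genes. *Bcam* (−0.94 ± 0.08) and *Itga7*, the laminin-binding integrin α7 (−0.79 ± 0.11), were lower, and *Sdc4* (0.99 ± 0.13) and *Sdc3* (0.98 ± 0.30) higher. *Loxl2*, a lysyl oxidase that crosslinks collagen IV, stood at 179 and 192 CPM in mutants and 44.9 and 39.5 CPM in controls (2.16 ± 0.12, edgeR adjusted p = 6.61e-10). *Mmp14* (1.58 ± 0.11) and *Bmp1* (1.47 ± 0.17), proteases that process matrix proteins, were higher, and *Ntn4* was lower (−1.53 ± 0.08). In pericyte-like cells alone, 10 of 16 assembly genes were higher and 1 lower and 1 of 12 receptors was higher and 4 lower (10.5% and 10.0% of all genes). In SMC-like cells, 0 of 16 assembly genes were higher and 2 lower in edgeR, and 1 of 11 receptors was called in each direction (6.64% of all genes in either). In mpEC-like cells, 6 of 15 assembly genes were higher and 1 lower, and 1 of 10 receptors was higher and 2 lower (11.3% and 10.1% of all genes).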

How the data were processed

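The data are 4 10x Chromium V3 libraries of metaphyseal cells. The authors trimmed reads with cutadapt 3.5 and mapped them with STARsolo 2.7.10a to GRCm39 (mm39) with a GENCODE annotation, counting exons and introns. What they deposited are expected counts of every gene in every barcode, without a filter, where a read that fits more than 1 gene is split by expectation maximization (9.09% to 9.95% of entries are not whole). The methods name no strand setting, and the authors used default parameters except as given in a code repository that was not used here or in their list of settings, which names none for strand.

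Barcodes had to hold 1000 UMIs and 800 features, no more than 15% mitochondrial and 5% hemoglobin counts, and a complexity (log features over log UMIs) of 0.8. Cell types were gated by mean marker scores (at least 0.25, margin 0.1, 3 markers; subtypes at least 0.2 and a defining marker); the thresholds were set after marker detection was seen. Of the aEC-like and mpEC-like cells, 25.5% and 21.4% lay near the gate. 989 barcodes that passed for 2 types were left out, no doublet caller was run, and doublets of 1 type go unseen. The gates are not the cell annotation of the study. Markers kept in the gates, such as *Apln*, *Vwf* and *Rgs5*, differed between the groups within their own classes.

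For each library and class the counts were added up, rounded and compared with edgeR 4.0.16 (R 4.3.3, quasi-likelihood, TMM, Benjamini-Hochberg over all genes tested); standard errors follow from the F statistic. Combined fits held the library as a block. DESeq2 1.42.0 was an alternative, beside other filters, gates, scaling, free RNA subtraction, the replicate block and leaving out each library. Simulated counts used a common dispersion for all genes, with 100 genes changed by 1 log2 unit and 100 by 2. Of these, 75% and 99% were recovered for ECs (14165 genes), and 48% and 98% for mpEC-like cells (8525 genes). False calls were 3.87% and 3.95% of the calls. Far more genes were called in the data and dispersions differ between genes, so these rates may not hold for the fits. The sampling error of a sum falls with its cells. The vessel sum with the fewest cells, of mpEC-like cells in 1 mutant library, held 45.

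The members and the receptor and assembly lists were chosen with earlier results of these data known. Named with values per library are members called in a vessel class without overlap of the groups, by size, and those highest in control vessel cells; of the lists, at most the 4 largest calls in all ECs and all mural cells. Other members named in the text, in OBs, CHOs, fibroblasts and BMSCs, were chosen after their values were seen. Positions are from GENCODE M39 on GRCm39, and promoter windows from RefSeq on GRCm38.p6.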

Additional observations from a re-analysis of the deposited data

Results flagged for a closer look

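Each of these differences is a test of the difference itself in edgeR, over all genes of the fit, on the log2 scale, and each lists the genotype effect in 1 group of cells against another. The values are given with their standard errors.

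The genotype effect in ECs minus that in mural cells was negative for 8 members. It was −2.19 ± 0.22 for *Fbln5* (edgeR adjusted p = 4.01e-05) and −1.87 ± 0.22 for *Col15a1* (adjusted p = 0.000123). It was −1.71 ± 0.12 for *Nid1*, −1.69 ± 0.17 for *Lamb1* and −1.24 ± 0.31 for *Lama2*. It was −1.03 ± 0.07 for *Col4a2*, −0.98 ± 0.19 for *Efemp2* and −0.97 ± 0.07 for *Col4a1*. The difference was positive for 5 members: 0.67 ± 0.11 for *Lamc1*, 0.78 ± 0.11 for *Lamb2*, 1.22 ± 0.13 for *Lama4*, 1.25 ± 0.08 for *Tinagl1* and 3.55 ± 0.52 for *Col4a5*, whose level in ECs was at most 6.16 CPM. In SMC-like cells alone *Col4a5* was not called (−0.09). The *Lama2* difference lost its call without mutant replicate 2 (−1.12) or control replicate 2 (−0.55). It was also lost with the double margin of marker scores (−0.68) and with free RNA subtracted (−1.16).

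Among EC subtypes, each set against the mean of the other 3, mpEC-like cells differed for 8 members. The differences were 2.44 ± 0.34 for *Col15a1*, 1.47 ± 0.23 for *Lama4*, 1.41 ± 0.24 for *Col18a1*, 1.03 ± 0.22 for *Tinagl1*, 0.93 ± 0.22 for *Lamc1*, 0.84 ± 0.21 for *Col4a1*, −0.90 ± 0.22 for *Lama5* and −1.67 ± 0.33 for *Npnt*. In aEC-like cells they were −1.42 ± 0.24 for *Col18a1* (edgeR adjusted p = 0.00402) and 1.30 ± 0.29 for *Npnt* (adjusted p = 0.0365), and in alEC-like cells −1.15 ± 0.19 for *Tinagl1* (adjusted p = 0.00275). Of the 8 differences of mpEC-like cells, those of *Tinagl1*, *Lamc1*, *Col4a1*, *Lama5* and *Npnt* each lost the call without at least 1 library. All 8 lost it when mpEC-like cells with an *Apln* UMI were left out. With 0 of 8413 genes called in mpEC-like cells there, that loss is not particular to the members. *Col18a1* in aEC-like cells was not called without mutant replicate 1 (−1.12), nor *Npnt* without mutant replicate 2 (0.84) or control replicate 1 (0.92). The subtypes enter each other's mean, so these 11 values are not independent.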

How the results depend on the processing

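Of 77 member fold changes called in vessel classes, followed through 1003 refits, 1 changed sign: *Agrn* in mpEC-like cells was 0.24 when cells with an *Apln* UMI were left out. That setting was chosen after seeing the data. It called 8 genes and 0 members in mpEC-like cells. In the fit of EC subtypes, of 8413 genes and 18 members, it called 0 and 0 in mpEC-like and 17 and 0 in aEC-like cells. It called 27 and 1 in alEC-like and 27 and 1 in bmEC-like cells. The settings fixed for the analysis reversed no call. Counts of calls moved by over 1.5 times as follows, and unless a value shows it the cause was not tested.

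With DESeq2 the genes called were 2709 in all ECs, 128 in aEC-like, 354 in bmEC-like, 682 in mpEC-like, 213 in alEC-like, 1561 in mural, 211 in SMC-like and 789 in pericyte-like cells, 1382 in BMSCs, 357 in OBs, 4502 in CHOs and 28 in fibroblasts. The members called with it were 1 in aEC-like, 2 in alEC-like and 0 in SMC-like cells, 4 in BMSCs and 0 in OBs. Without the filter on low counts, the genes called were 621 in aEC-like cells, 146 in BMSCs, 1324 in OBs and 308 in fibroblasts, and the members 6, 0, 6 and 5. In SMC-like cells 3 of 29 members were called, beside 622 of 19659 genes. In the fit of subtypes it gave 190 genes and 5 members in aEC-like, 147 and 1 in bmEC-like and 232 and 2 in alEC-like cells. With genes seen in 20% of cells, CHOs had 4128 genes and 8 members called, and 6830 genes set CHOs apart in controls. SMC-like cells then had 3 of 12 members called (574 of 4670 genes) and fibroblasts 2 of 16 (84 of 5645 genes). At 2000 UMIs, SMC-like cells had 315 genes and 0 members. With the double margin of marker scores, the calls were 92 genes and 1 member in aEC-like and 369 and 0 in SMC-like cells. In alEC-like cells 10 of 18 members were called (768 of 8308 genes), and in BMSCs 7 of 25 (3026 of 15219 genes). In OBs 2 of 19 were called (737 of 12447 genes) and in fibroblasts 2 of 16 (67 of 6621 genes). In the alEC-like difference 3 of 18 were called (148 of 7689 genes). With only the UMI and feature filters, 1 of 16 members was called in fibroblasts (86 of 7581 genes). With free RNA subtracted, fibroblasts had 40 genes called and OBs 2 of 20 members (695 of 12646 genes).

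The replicate numbers of the labels name 2 libraries a group. Deviations of same-numbered libraries correlated at 0.073 to 0.177 in the EC classes and at −0.0834 to 0.0886 in the other classes. The labels do not say whether the numbers pair the samples, and 2 pairs cannot decide it. With the replicate block, the members and genes called were 4 and 1192 in bmEC-like, 4 and 375 in aEC-like and 2 and 772 in SMC-like cells. They were 3 and 864 in OBs and 3 and 156 in fibroblasts. They were 18 and 5579 in all ECs, 14 and 2246 in mpEC-like, 22 and 3460 in mural and 13 and 1823 in pericyte-like cells. The block and DESeq2 were not run on the combined fits. In the fit of cell types in controls, leaving out a control library leaves no residual degrees of freedom for the test and was not run.

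Leaving out each library in turn, the genes called ranged from 134 to 224 in aEC-like, 0 to 864 in bmEC-like, 1102 to 1816 in mpEC-like, 315 to 1020 in alEC-like, 276 to 588 in SMC-like and 1030 to 1153 in pericyte-like cells, 859 to 3018 in BMSCs, 0 to 639 in OBs and 0 to 50 in fibroblasts. The members ranged from 0 to 3 in aEC-like, 0 to 4 in bmEC-like, 1 to 9 in alEC-like and 0 to 1 in SMC-like cells, 2 to 9 in BMSCs, 0 to 2 in OBs and 0 to 2 in fibroblasts. In the differences between subtypes, genes ranged from 27 to 83 in aEC-like, 4 to 41 in bmEC-like, 198 to 491 in mpEC-like and 38 to 79 in alEC-like cells, and members from 1 to 3, 5 to 7 and 1 to 2 in aEC-like, mpEC-like and alEC-like cells. ECs against mural cells gave 1248 to 1724 genes. A lone library is then assumed to vary like the other group.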
